A study of Homo sapiens with 8 samples.

Results

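Amino acid transporter genes of 6 solute carrier families were followed in CCRF-CEM-C7-14, a glucocorticoid-responsive human T-cell acute lymphoblastic leukaemia line, before and during exposure to dexamethasone, a synthetic glucocorticoid that activates the glucocorticoid receptor. Members were the genes whose symbol falls in the SLC1A, SLC3A, SLC7A, SLC36A, SLC38A or SLC43A series, each read from its brightest probe set (by mean over all 8 arrays) among those annotated to that gene alone. There were 38 members among the 19775 genes read in the same way: 7 in SLC1, 2 in SLC3, 13 in SLC7, 2 in SLC36, 11 in SLC38 and 3 in SLC43. SLC36A2, SLC36A3 and SLC38A8, which complete the 41 family names in RefSeq, were not analysed here. Total RNA was hybridised to 3 arrays of untreated cells (0 h), 3 arrays of cells after 2 h and 2 arrays of cells after 10 h in 1 µM dexamethasone. All cells, untreated ones included, were held in serum stripped with charcoal, a step that removes steroid hormones. The labels call the arrays biological replicates of this single line without saying whether each came from its own culture, and p-values cover only the spread among them. Vehicle-treated arrays at the later times were not used here, so an effect of the hormone and one of time in stripped serum cannot be told apart.

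These carriers bring amino acids into the cell, exchange them across the plasma membrane or release them from lysosomes. The light chains of SLC7 pair with a heavy chain of SLC3 to reach the cell surface, whereas the cationic carriers of SLC7 and the members of SLC1, SLC36, SLC38 and SLC43 work without one. In activated and malignant T cells the system is known to supply glutamine and large neutral amino acids for growth and for mTORC1 signalling, and several members are known targets of MYC or of ATF4, the transcription factor of the amino acid response.

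No member was called at either time. At 2 h against 0 h, limma called 0 of 38 members at an adjusted p below 0.05, where 0.0202% of all genes were called. For 10 h against 0 h it again called 0 of 38, where 0.354% of all genes were called (66 higher and 4 lower at 10 h). The 10 h against 2 h comparison called 0 of 38 members, with 0.167% of all genes called. The F test for any difference among the 3 times called 0 of 38 as well, with 0.283% of all genes called, and its smallest adjusted p among members was 0.749. With background shares this low, 0 calls among 38 genes is near the background.

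A looser rule, an unadjusted limma p below 0.05, picked 0 members at 2 h against 0 h, where it picked 0.946% of all genes. At 10 h against 0 h it picked SLC1A4 alone, with 3.44% of all genes picked. Between 10 h and 2 h it picked 4 members, with 3.15% of all genes picked: SLC1A4 was higher at 10 h, and SLC43A3, SLC7A1 and SLC38A6 were lower at 10 h. The F test picked 2 of 38 members by the same rule, where it picked 2.49% of all genes. The arrays of 2 h and 0 h did not overlap for 0 of 38 members, against 4.04% of all genes. The arrays of 10 h and 0 h did not overlap for 5 members, against 13.1% of all genes: SLC1A4 and SLC7A3 lay higher at 10 h, and SLC1A2, SLC7A1 and SLC43A3 lay lower.

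The differences were small and ran both ways. At 2 h against 0 h, 19 members had a positive and 19 a negative log2 difference, with a median of -0.01 against 0.02 for all genes. After 10 h the split against 0 h was 20 positive to 18 negative, with a median of 0.01 against -0.02 for all genes. The median size of the log2 difference, whatever its sign, was 0.0937 at 2 h (0.0999 for all genes) and 0.137 at 10 h (0.121 for all genes). Both comparisons share the 0 h arrays. The 95% interval of the difference lay within a 2-fold change in either direction for 37 of 38 members at 2 h and for 35 of 38 at 10 h, and within 1.5-fold for 30 and 17. Of all 19775 genes, 99.3% at 2 h and 96.9% at 10 h had an interval within 2-fold. Within 1.5-fold it was 14479 genes at 2 h and 10031 at 10 h. The remaining intervals of the members reached past those bounds and do not exclude changes of that size. The number of arrays limits the precision of every value.

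**Figure D1:**
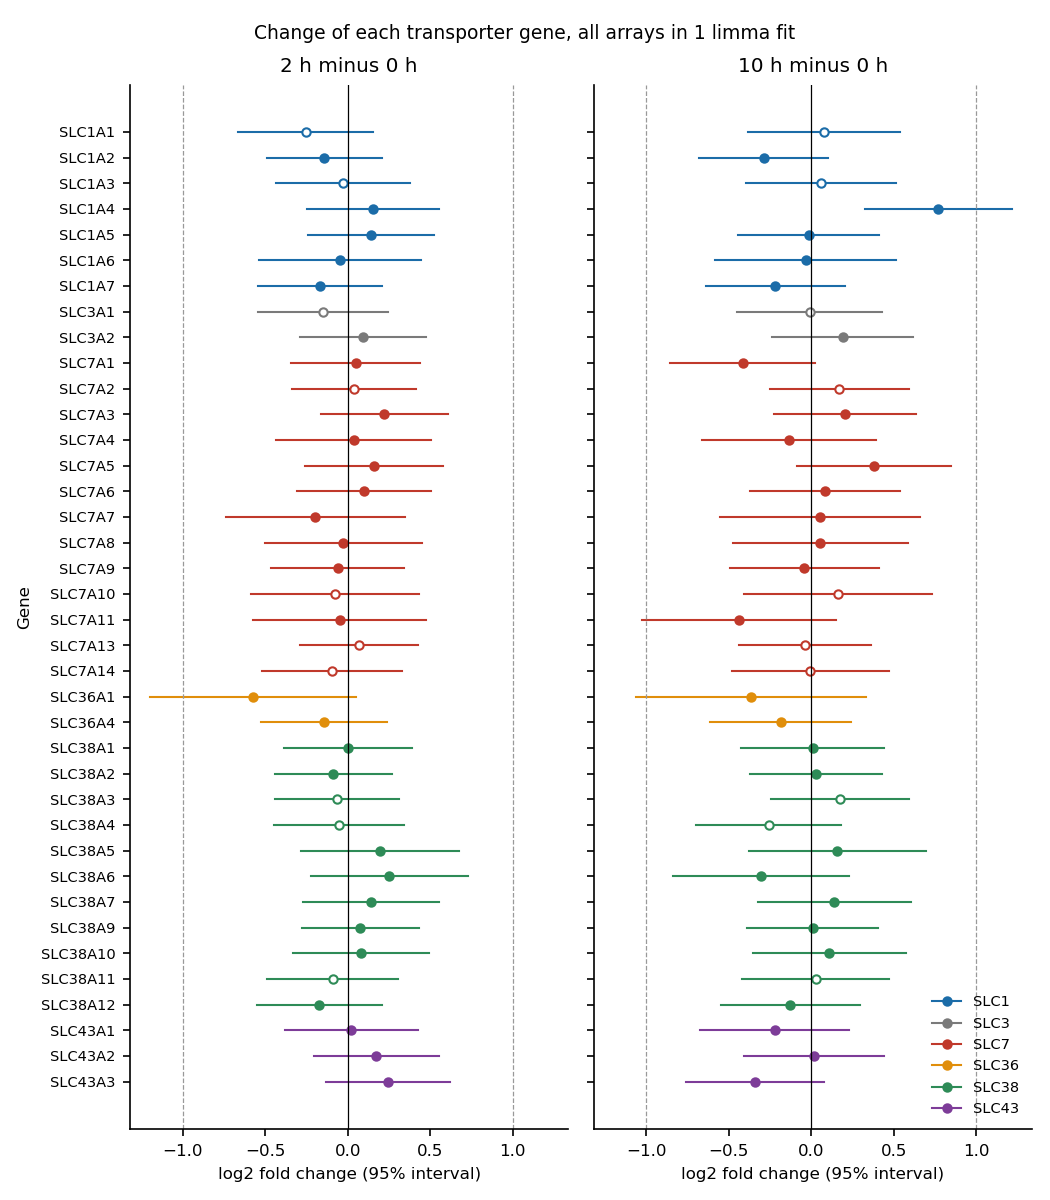
Log2 fold change of each of the 38 transporter genes (rows, coloured by family) at 2 h minus 0 h (left) and 10 h minus 0 h (right), with the 95% interval of the limma fit; open circles are genes at or below the highest negative control and dashed lines mark 2-fold. SLC1A4 at 10 h is the member whose interval, from 0.32 to 1.22, lies clear of 0; the other 37 intervals at 10 h and all 38 at 2 h include 0.

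The highest value among the 27 Bacillus negative control probe sets was 4.73. It was exceeded by the mean over the arrays of 13068 of all 19775 genes and of 28 of the 38 members. The other 10 were at or below it, so the arrays give no clear level for them: SLC1A1 and SLC1A3, glutamate carriers; SLC3A1, the heavy chain of the cystine carrier; SLC7A2, SLC7A10, SLC7A13 and SLC7A14; and SLC38A3, SLC38A4 and SLC38A11. Several dim members were lowest in arrays that also had a low median. In each time 1 array had a low median (0 h replicate 2, 2 h replicate 3 and 10 h replicate 1, with array medians of 4.68, 4.68 and 4.77, against 4.91 to 5.01 for the other 5), a set already known from earlier results of these data. SLC7A10, for example, read 3.29 in 0 h replicate 2 against 4.21 and 4.30 in the other 0 h arrays. Values within this set and over the other arrays are given below beside SLC1A4, SLC7A5, SLC7A11, SLC7A1, SLC36A1, SLC38A6 and SLC43A3. At 10 h each set holds only 1 array, so neither value is replicated there.

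**Figure D2:**
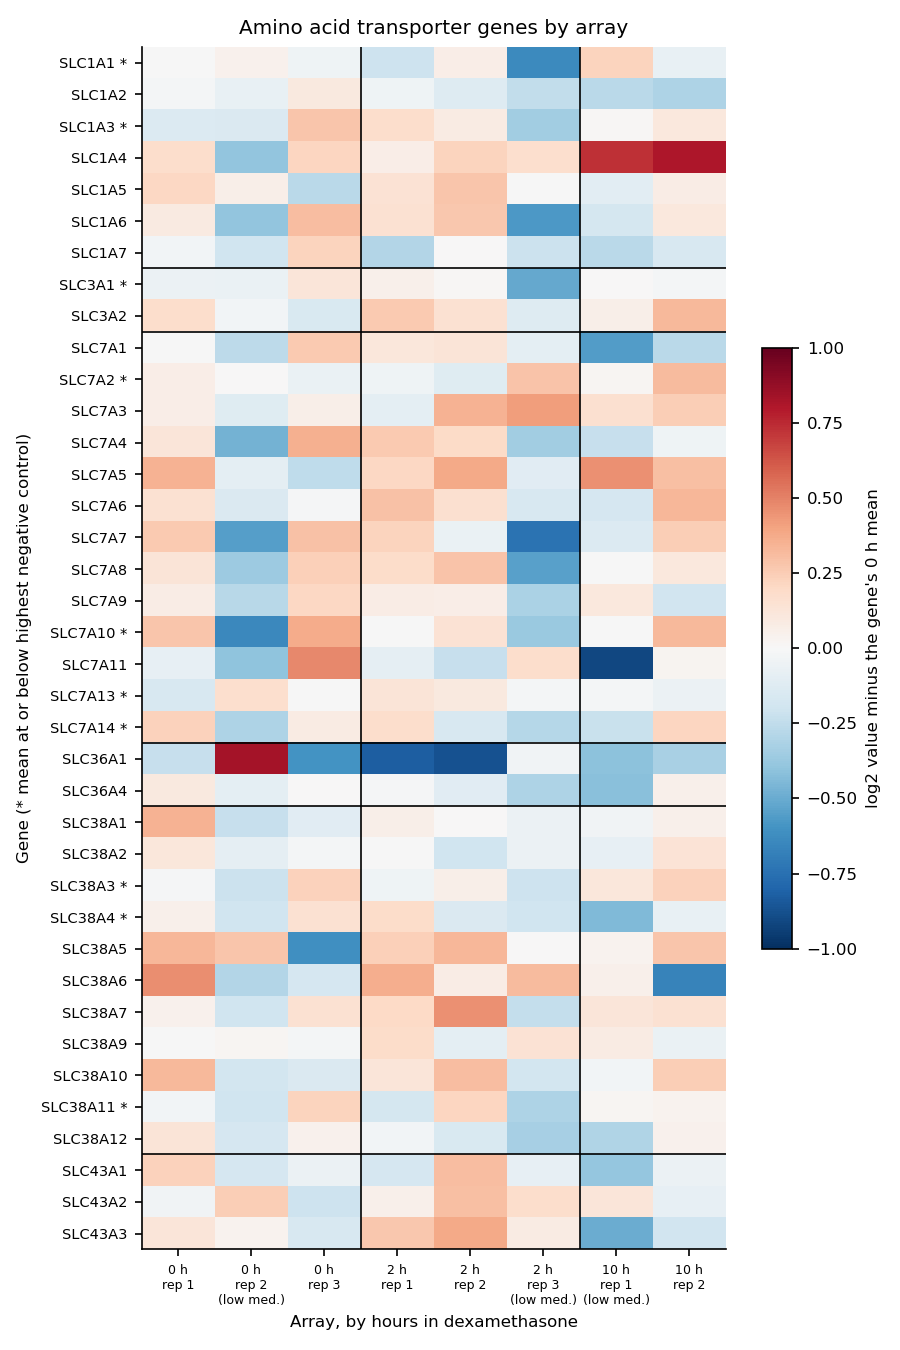
Log2 value minus the gene's own 0 h mean for each of the 38 members (rows, by family) in each of the 8 arrays (columns, by time), with blue below and red above that mean and the colour scale ending at 1 in either direction. SLC1A4 is red in both 10 h arrays; the blue runs in 0 h replicate 2 and 2 h replicate 3, among SLC7A7, SLC7A8 and SLC7A10 for example, lie in arrays marked as having a low median.

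Among the SLC1 carriers, SLC1A4, a sodium-dependent exchanger of alanine, serine, cysteine and threonine also known as ASCT1, had the largest log2 difference of the 38 members at 10 h. It read 9.45, 8.88 and 9.49 at 0 h, 9.34, 9.49 and 9.44 at 2 h, and 10.00 and 10.08 at 10 h. Both 10 h arrays lay above all 6 earlier ones, and the lowest value was 0 h replicate 2. The log2 difference at 10 h against 0 h was 0.77 ± 0.21 (SE), a 1.70-fold difference with a 95% interval of 1.25 to 2.32, an unadjusted limma p of 0.00206 and an adjusted p of 0.285 over all genes, so it was not called. At 2 h against 0 h the difference was 0.15 ± 0.19. Within the low-median arrays the 10 h difference was 1.13 from 1 array a time, and over the other arrays, also with 1 array at 10 h, it was 0.61.

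All 5 probe sets of SLC1A4 gave a positive difference at 10 h against 0 h, between 0.59 and 0.77, and in each the 10 h arrays lay above the 0 h arrays. They target the same transcripts in the same RNA, so they are not replicates. None was called in the fit of all probe sets, whose background share was not counted. Of the 5, the dimmest is the one without a suffix for shared sequence in its name, and its log2 difference was 0.71 ± 0.22 (SE). It read 5.89, 5.32 and 5.39 at 0 h, 5.84, 5.62 and 5.50 at 2 h, and 6.06 and 6.43 at 10 h.

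**Figure D3:**
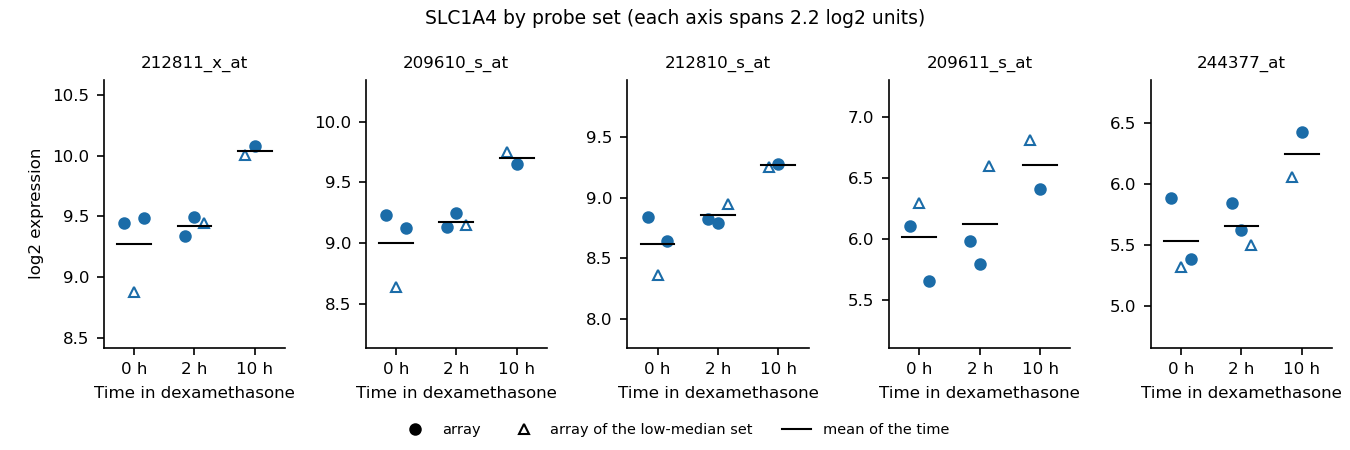
Log2 expression of the 5 probe sets of SLC1A4 (panels, brightest on the left) by hours in dexamethasone, with a point for each array, open triangles for the arrays of the low-median set and a bar at the mean of each time; panels span the same range but start at different values. In every panel both 10 h points lie above the 3 points at 0 h.

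The promoters of the members were searched for the core of the amino acid response element, TGATGNAA, at which ATF4 is known to act with a partner, and for CACGTG, the E-box that MYC and its relatives bind. RefSeq windows of 300 bases (250 before the transcription start and 50 after it, build GRCh38.p14) were found for 29 of the 38 members, 51 windows in all because several genes have more than 1 start. Both strands were searched. TGATGNAA lay in a window of 6 of the 29 members, namely SLC1A3, SLC1A4, SLC1A5, SLC3A2, SLC7A1 and SLC38A1, and in 3.62% of all 35116 windows. CACGTG lay in a window of 9 of the 29, namely SLC1A5, SLC1A7, SLC7A5, SLC7A7, SLC7A8, SLC36A1, SLC38A5, SLC38A7 and SLC43A1, and in 7.26% of all windows. The member shares count genes and the background shares count windows, so they are not on the same footing. The hormone receptor's full palindrome, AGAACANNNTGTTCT, lay in 0 of the 29 and in 1 of all 35116 windows (0.00285%). A sequence this rare would be absent from 29 genes in almost any case, so its absence says nothing about the members. Its first 6 letters, AGAACA, lay in a window of 5 of the 29, namely SLC7A7, SLC36A4, SLC38A1, SLC38A4 and SLC38A11. AGAACA lay in 14.8% of all windows, a share again counted on a different footing. A match is a description of letters and not a site or a cause.

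SLC1A4 and SLC7A1 are shown because both hold TGATGNAA near the start while their 10 h differences had opposite signs, and SLC7A5 is shown for its E-box. The first 2 were picked with those differences known, and neither difference was called. SLC38A1, not shown, also holds TGATGNAA near the start and had a 10 h log2 difference of 0.01. Each sequence runs 5′ to 3′ on the strand of the gene, with the matched letters in capitals. The SLC1A4 window is chr2:64989149-64989448 on the plus strand, where the match reads as the reverse complement and begins at base 244 of the window. The SLC7A1 window is chr13:29595639-29595938 on the minus strand, with the match beginning at base 258. The SLC7A5 window is chr16:87869458-87869757 on the minus strand, with the E-box, which reads the same on both strands, beginning at base 121.
SLC1A4: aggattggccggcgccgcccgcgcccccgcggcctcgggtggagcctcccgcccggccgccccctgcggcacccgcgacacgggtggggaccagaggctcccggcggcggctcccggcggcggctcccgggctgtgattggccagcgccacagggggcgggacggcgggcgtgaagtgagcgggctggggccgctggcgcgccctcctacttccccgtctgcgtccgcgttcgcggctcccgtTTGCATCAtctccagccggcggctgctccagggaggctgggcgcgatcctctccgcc
SLC7A1: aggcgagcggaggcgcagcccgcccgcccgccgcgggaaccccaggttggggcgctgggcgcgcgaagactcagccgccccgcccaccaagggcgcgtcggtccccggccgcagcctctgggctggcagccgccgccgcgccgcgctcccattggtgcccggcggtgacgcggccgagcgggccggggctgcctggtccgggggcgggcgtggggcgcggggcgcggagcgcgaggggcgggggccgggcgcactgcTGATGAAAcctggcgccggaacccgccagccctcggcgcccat
SLC7A5: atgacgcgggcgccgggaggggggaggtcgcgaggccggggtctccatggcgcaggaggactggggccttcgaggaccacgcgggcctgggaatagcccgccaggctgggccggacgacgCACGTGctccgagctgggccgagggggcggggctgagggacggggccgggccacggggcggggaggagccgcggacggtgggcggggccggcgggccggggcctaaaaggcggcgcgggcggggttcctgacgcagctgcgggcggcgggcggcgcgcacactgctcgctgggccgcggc

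For 10 h against 0 h, the 6 members with TGATGNAA had a median log2 difference of 0.03 and the other 23 with a window had a median of 0.02. For CACGTG the medians were 0.05 in the 9 members with it and 0.01 in the other 20.

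SLC1A5, the glutamine exchanger ASCT2, is a close relative of SLC1A4. It read 9.02, 8.88 and 8.55 at 0 h, 8.97, 9.09 and 8.82 at 2 h, and 8.71 and 8.89 at 10 h, and the times overlapped throughout. Its log2 difference was 0.14 ± 0.18 (SE) at 2 h and -0.02 ± 0.20 at 10 h, with a 95% interval at 10 h of 0.74- to 1.33-fold. The other SLC1 members are glutamate carriers best known from brain, and their log2 differences ran from -0.26 to -0.03 at 2 h and from -0.29 to 0.08 at 10 h.

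SLC3A2, the heavy chain 4F2hc that the large neutral amino acid and cystine light chains need, overlapped between all times. Its values were 8.71, 8.51 and 8.38 at 0 h, 8.80, 8.69 and 8.41 at 2 h, and 8.60 and 8.86 at 10 h. The log2 difference was 0.09 ± 0.18 (SE) at 2 h and 0.19 ± 0.20 at 10 h. SLC3A1, the other heavy chain, was at the level of the negative controls.

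Its main partner for large neutral amino acids is SLC7A5, the light chain LAT1, which imports leucine. SLC7A5 read 10.84, 10.40 and 10.24 at 0 h, 10.71, 10.88 and 10.38 at 2 h, and 10.95 and 10.80 at 10 h. The second 10 h array lay just below 0 h replicate 1, so the times overlapped. The log2 difference at 10 h was 0.38 ± 0.22 (SE), with a 95% interval of -0.09 to 0.85 and an adjusted limma p of 1.00. Within the low-median arrays it was 0.55, and over the other arrays 0.25. SLC7A6, a light chain that exchanges cationic for neutral amino acids, had a log2 difference of 0.10 ± 0.19 at 2 h and 0.08 ± 0.22 at 10 h. Its arrays were 9.44, 9.15 and 9.28 at 0 h, 9.59, 9.45 and 9.13 at 2 h, and 9.13 and 9.62 at 10 h, so that the 10 h arrays were the lowest and the highest of the 8.

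SLC7A11, the cystine-glutamate exchanger xCT, had the lowest log2 difference of all members at 10 h, -0.44 ± 0.28 (SE), with an interval of -1.03 to 0.15. It read 6.67, 6.35 and 7.23 at 0 h, 6.66, 6.52 and 6.92 at 2 h, and 5.84 and 6.78 at 10 h. In this probe set the difference rests on 10 h replicate 1, the lowest of the 8 arrays. Without that array the value was 0.026, and without 10 h replicate 2 it was -0.91. Within the low-median arrays, which hold 10 h replicate 1, it was -0.51, and over the other arrays -0.17. The 3 probe sets of SLC7A11 gave 10 h differences from -0.44 to -0.25. In 0 of them did the 10 h arrays lie apart from the 0 h arrays. The second brightest read 5.37, 4.85 and 5.30 at 0 h, and 4.96 and 4.90 at 10 h. SLC7A7, the partner of SLC3A2 in cationic amino acid release, read 6.10, 5.28 and 6.13 at 0 h, 6.06, 5.77 and 5.10 at 2 h, and 5.70 and 6.08 at 10 h. It was lowest in 0 h replicate 2 and 2 h replicate 3, both low-median arrays, and its log2 difference was -0.20 ± 0.26 at 2 h and 0.05 ± 0.29 at 10 h.

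Of the cationic carriers, SLC7A1, the arginine and lysine importer CAT1, was lower in both 10 h arrays than in any other. It read 10.46, 10.20 and 10.73 at 0 h, 10.58, 10.59 and 10.36 at 2 h, and 9.90 and 10.19 at 10 h. The second 10 h array was only marginally below 0 h replicate 2. At 10 h against 0 h the log2 difference was -0.42 ± 0.21 (SE), with an interval of -0.85 to 0.02, an unadjusted limma p of 0.0612 and an adjusted p of 1.00. At 10 h against 2 h it was -0.47, with an unadjusted limma p of 0.0388. The value within the low-median arrays was -0.30 at 10 h against 0 h, and over the other arrays -0.40. Its 5 probe sets gave 10 h differences from -0.44 to 0.02, and 2 of them lay below the 0 h arrays throughout.

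SLC7A3, the cationic carrier CAT3, is best known from brain and was above the negative controls here. Its values were 6.95, 6.77 and 6.94 at 0 h, 6.79, 7.24 and 7.30 at 2 h, and 7.05 and 7.13 at 10 h. The 10 h arrays lay above the 0 h arrays, with a log2 difference of 0.20 ± 0.20 (SE), and the 2 h arrays overlapped both, with a difference of 0.22 ± 0.18. The other 7 SLC7 members, which include the light chains SLC7A8, SLC7A9 and SLC7A10, had log2 differences from -0.09 to 0.07 at 2 h and from -0.14 to 0.17 at 10 h.

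SLC36A1, the proton-coupled carrier PAT1 of lysosomes and the plasma membrane, had the lowest log2 difference of all members at 2 h, -0.58 ± 0.30 (SE), and -0.37 ± 0.33 at 10 h. It read 5.37, 6.43 and 4.999 at 0 h, 4.78, 4.73 and 5.57 at 2 h, and 5.19 and 5.27 at 10 h. Both differences rest on the high value of 0 h replicate 2: without that array they were -0.16 at 2 h and 0.049 at 10 h. Within the low-median arrays, which hold it, the differences were -0.87 at 2 h and -1.24 at 10 h, and over the other arrays -0.43 and 0.091. In its second probe set the differences were 0.02 at 2 h and -0.05 at 10 h. SLC36A4, a related carrier of proline and tryptophan, read 8.06, 7.86 and 7.96 at 0 h, 7.95, 7.85 and 7.65 at 2 h, and 7.54 and 8.01 at 10 h. The log2 difference of SLC36A4 was -0.14 ± 0.18 at 2 h and -0.19 ± 0.20 at 10 h, and 0.049 at 10 h without 10 h replicate 1.

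The sodium-coupled carriers of SLC38 import glutamine, alanine and other small neutral amino acids. SLC38A1 (SNAT1) read 11.67, 11.09 and 11.21 at 0 h, 11.38, 11.33 and 11.26 at 2 h, and 11.29 and 11.37 at 10 h, so both treated groups lay inside the range of the untreated arrays. Its log2 difference was 0.00 ± 0.18 (SE) at 2 h and 0.01 ± 0.21 at 10 h, with a 95% interval at 10 h of 0.74- to 1.36-fold. SLC38A2 (SNAT2), known to be induced by amino acid starvation, read 11.34, 11.13 and 11.20 at 0 h, 11.22, 11.03 and 11.16 at 2 h, and 11.14 and 11.36 at 10 h. Here too the times overlapped, with log2 differences of -0.09 ± 0.17 at 2 h and 0.03 ± 0.19 at 10 h.

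SLC38A9, a lysosomal carrier that is known to sense arginine for mTORC1, varied little. Its arrays read 7.62, 7.65 and 7.61 at 0 h, 7.81, 7.53 and 7.77 at 2 h, and 7.71 and 7.56 at 10 h, with log2 differences of 0.08 ± 0.17 (SE) at 2 h and 0.01 ± 0.19 at 10 h. SLC38A6 spread more: it read 6.67, 5.91 and 6.04 at 0 h, 6.57, 6.28 and 6.53 at 2 h, and 6.26 and 5.54 at 10 h. The 2 h arrays lay within the range of the 0 h arrays and the 10 h arrays fell on either side of 0 h replicate 3. The log2 difference was 0.25 ± 0.23 at 2 h and -0.31 ± 0.25 at 10 h, and 0.054 at 10 h without 10 h replicate 2. Its sign at 10 h differed between the array sets, at 0.35 within the low-median arrays and -0.81 over the others. SLC38A12, formerly TMEM104, read 6.51, 6.21 and 6.42 at 0 h, 6.35, 6.23 and 6.05 at 2 h, and 6.08 and 6.43 at 10 h, with differences of -0.17 ± 0.18 and -0.13 ± 0.20. The other 6 SLC38 members ran from -0.09 to 0.19 at 2 h and from -0.26 to 0.17 at 10 h.

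All 3 SLC43 members had a negative log2 difference at 10 h against 2 h, with a median of -0.24 (-0.03 for all genes). SLC43A3, known as a carrier of purine nucleobases and not of amino acids, read 10.25, 10.17 and 9.96 at 0 h, 10.40, 10.50 and 10.21 at 2 h, and 9.63 and 9.94 at 10 h. Both 10 h arrays lay below all 6 others, the second by a small margin. The log2 difference was 0.24 ± 0.18 (SE) at 2 h against 0 h, -0.34 ± 0.20 at 10 h against 0 h, and -0.59 ± 0.20 at 10 h against 2 h. The last of these had an unadjusted limma p of 0.00867 and an adjusted p of 0.990. At 10 h against 0 h the value was -0.54 within the low-median arrays and -0.17 over the others, and -0.19 without 10 h replicate 1; at 10 h against 2 h it was -0.58 within the low-median arrays and -0.51 over the others. In its second probe set the differences were 0.01 at 2 h against 0 h and -0.20 at 10 h against 0 h.

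SLC43A1 and SLC43A2, the facilitative leucine carriers LAT3 and LAT4, overlapped between times. SLC43A1 read 7.03, 6.63 and 6.73 at 0 h, 6.63, 7.11 and 6.72 at 2 h, and 6.41 and 6.74 at 10 h, with log2 differences of 0.02 ± 0.19 (SE) at 2 h and -0.22 ± 0.21 at 10 h. SLC43A2 read 6.08, 6.36 and 5.91 at 0 h, 6.16, 6.42 and 6.29 at 2 h, and 6.23 and 6.03 at 10 h, with differences of 0.17 ± 0.18 and 0.02 ± 0.20.

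**Figure D4:**
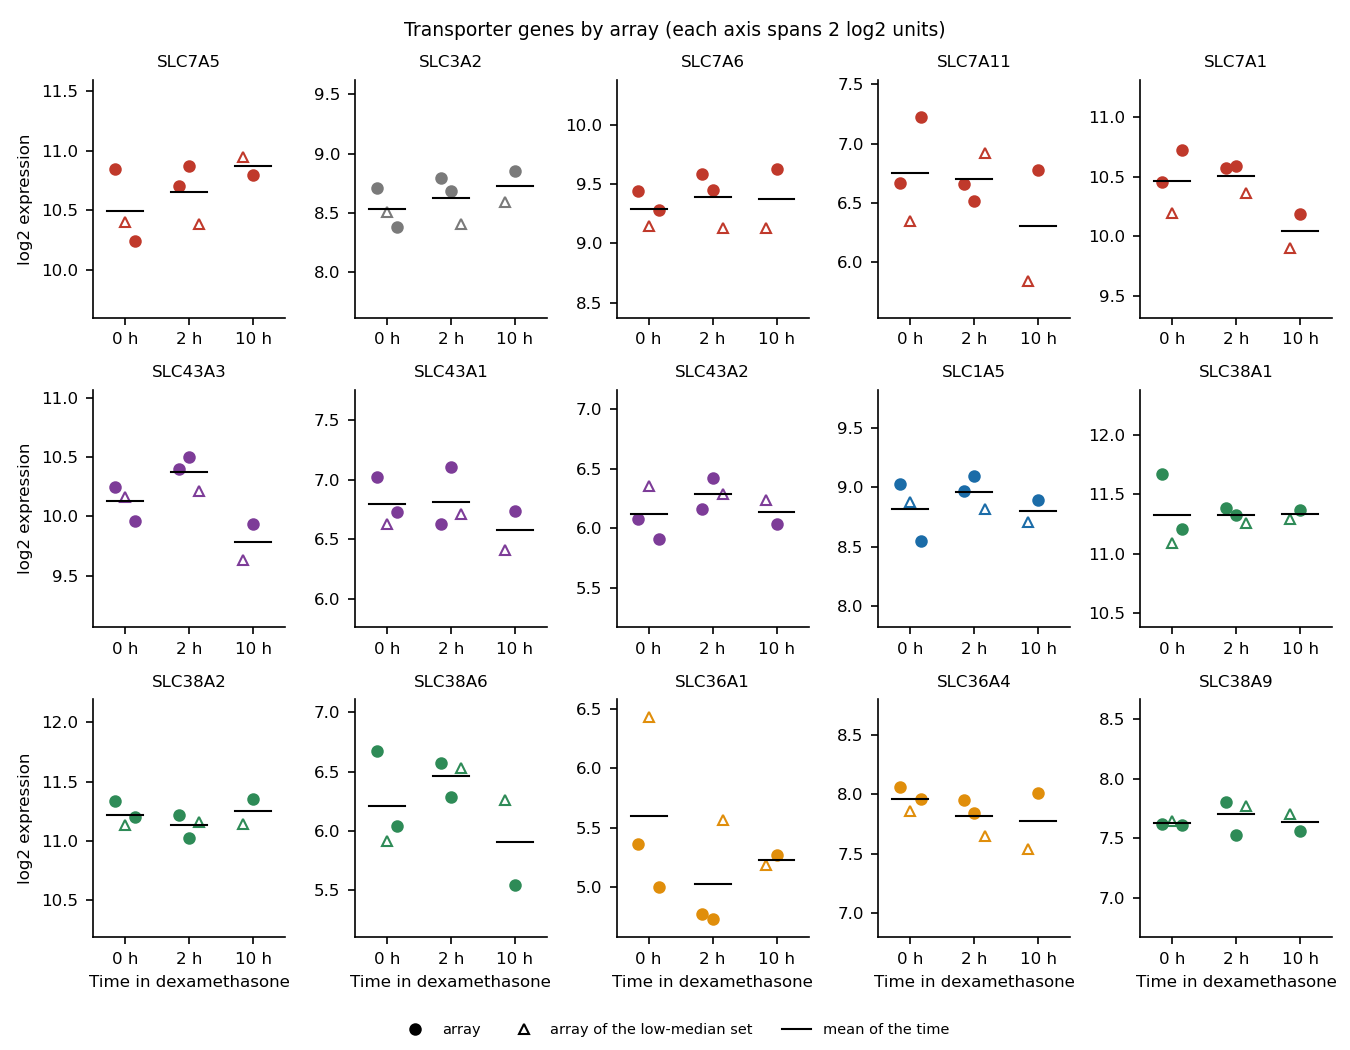
Log2 expression of 15 transporter genes (panels) by hours in dexamethasone, with a point for each array, open triangles for the arrays of the low-median set and a bar at the mean of each time; every axis spans 2 log2 units but starts at a different value. The 10 h points of SLC7A1 and SLC43A3 lie below all earlier points, while those of SLC38A1 and SLC1A5 lie within the range at 0 h.

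By family, the median log2 difference at 2 h and then at 10 h, each against 0 h, was -0.05 and -0.02 in SLC1, -0.03 and 0.09 in SLC3, and 0.04 and 0.05 in SLC7. It was -0.36 and -0.28 in SLC36, which has 2 members, 0.00 and 0.03 in SLC38, and 0.17 and -0.22 in SLC43, which has 3. The value of SLC36 at 10 h was 0.04 without the low-median arrays. In the fit of all probe sets, whose background share was not counted, 0 of the 91 annotated to a single member were called in any comparison. For SLC38A7 the 4 probe sets ran from -0.18 to 0.33 at 2 h, and the 3 above the negative controls were all positive. For SLC7A8 the 5 ran from -0.29 to 0.15 at 10 h, and the 2 above the negative controls were both positive.

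Other genes of amino acid handling were read as well. Of all genes, 0.0202% were called at 2 h and 0.354% at 10 h against 0 h. At such shares, few or 0 calls in a list of this size are near the background. Of 30 carriers from other families, 0 were called at either time. Of 38 measured genes of the amino acid response, 0 were called at 2 h and 1 at 10 h: DDIT4, an inhibitor of mTORC1 that glucocorticoids are known to raise. DDIT4 read 10.22, 9.78 and 10.18 at 0 h, 11.04, 10.90 and 10.94 at 2 h, and 11.20 and 11.32 at 10 h, every treated array above every untreated one. It rose at 10 h by 1.20 ± 0.20 log2 units (SE, adjusted limma p 0.00550). The median of that list was -0.10 at 10 h, against -0.02 for all genes.

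Among 34 measured genes of amino acid sensing by mTORC1, 0 were called at 2 h and 1 at 10 h. This was CASTOR1, a cytosolic arginine sensor that restrains mTORC1. It read 6.43, 6.57 and 6.30 at 0 h, 6.87, 7.09 and 6.98 at 2 h, and 7.71 and 8.04 at 10 h, with no overlap between times, and rose at 10 h by 1.44 ± 0.20 log2 units (SE, adjusted limma p 0.000824). Of 21 measured enzymes of glutamine, branched-chain and arginine metabolism, 0 were called. The shares of all genes called were 0.0202% at 2 h and 0.354% at 10 h, so these counts too are near the background.

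MYC, known to raise several of these carriers, read 11.41, 11.18 and 11.16 at 0 h, 11.28, 11.22 and 10.90 at 2 h, and 10.14 and 10.35 at 10 h. Both 10 h arrays lay below all others, and MYC fell by 1.01 on the log2 scale at 10 h (SE 0.20, adjusted limma p 0.0300). Whether this bears on the carriers was not tested.

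The labels of the treatment were checked on 2 genes that glucocorticoids raise. TSC22D3 was higher by 2.78 log2 units at 2 h and 4.30 at 10 h, and FKBP5 by 0.72 at 2 h and 2.16 at 10 h. In each gene every treated array lay above every untreated one. The FKBP5 difference at 2 h was not called (unadjusted limma p 0.00172), so a lack of calls at 2 h does not exclude a difference of that size. For the cell type, 13 of 14 measured T-lineage markers lay above the negative controls, CD3D at a mean of 13.0, while CD2 did not. Of the markers of other cells, 5 of 6 for B cells, 2 of 6 for myeloid cells, 3 of 5 for erythroid cells and 5 of 8 for epithelial and stromal cells were above the negative controls. So were 13068 of all 19775 genes, which makes passing this level a weak check of cell type. The sum of the T-lineage markers' log2 values ran from 129.9 to 131.3 at 10 h and from 128.1 to 132.1 at 0 h. The corresponding ranges of the B cell, myeloid, erythroid, and epithelial and stromal lists also overlapped between 10 h and 0 h.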

How the data were processed

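Biotin-labelled total RNA was measured on 8 single-colour oligonucleotide arrays of 54675 probe sets. Values are on the log2 scale, as deposited, made with RMA per the submitters' processing notes (no version is named there). Levels of different probe sets share no common scale, so changes are compared only within a probe set between arrays. Levels were set side by side only to rank the probe sets of a gene, against the negative controls and in the marker sums. Those uses are a rough guide.

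Groups came from the labelled time. Of the probe sets, 41091 carried 1 gene symbol in the platform annotation, and each of 19775 genes was read from the brightest of these over the 8 arrays, a mean that includes the treated ones. All arrays entered a single fit in limma 3.58.1 (R 4.3.3) with a mean per time, eBayes and 3 contrasts (5 residual degrees of freedom). Two-sided p-values were adjusted by Benjamini-Hochberg over all genes and called below 0.05. The fit was run on simulated arrays with known changes and independent noise. Those arrays had no shift shared by a whole array, so the run cannot show that error rates hold in these data. Replicate numbers were taken not to pair arrays: same-numbered arrays correlated between -0.27 and 0.26 in their deviations from the time means, and 1 of 7 pairs passed 0.1.

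Members and lists were chosen with earlier results of these data known. Values by array are given for 15 members chosen for their role, for the 3 largest positive and 3 largest negative differences at each time among members above the negative controls, and for called genes of the other lists. The genes SLC7A10 (array example), SLC38A7 and SLC7A8 (probe set examples), and SLC1A4 and SLC7A1 (printed promoters), were picked after their values were seen. The alternatives covered the probe set per gene, normalization, dim genes, variance model, array weights, samples in the fit, blocks and each array left out.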

Additional observations from a re-analysis of the deposited data

How the results depend on the processing

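No member was called by limma at an adjusted p below 0.05 in any comparison under the 20 alternatives, or by the F test under the 19 that fit all 3 times. SLC1A4 at 10 h against 0 h had a log2 difference between 0.57 and 0.88 over them, with an adjusted limma p between 0.0647 and 1.00. Of 38 differences of named members (19 genes at 2 h and 10 h against 0 h), 16 kept their sign under all 20 alternatives. Some alternatives leave a difference as it was by construction, so part of this was fixed in advance. These are leaving out dim genes, trended robust variances, fitting only the times compared, and leaving out an array of a time not compared. The replicate block and the low-median block also leave every difference at 2 h against 0 h as it was, since both are balanced over those arrays. The choice of probe set likewise cannot move a gene that has only 1. The signs that turned from a difference larger than its SE were those of SLC36A1 at 10 h (0.091 without the low-median arrays; -0.67 to 0.049 with each array left out, the highest without 0 h replicate 2), SLC38A6 at 2 h (-0.065 with array weights), SLC38A6 at 10 h (-0.81 without the low-median arrays; -0.67 to 0.054 with each array left out, the highest without 10 h replicate 2) and SLC7A11 at 10 h (-0.91 to 0.026, the highest without 10 h replicate 1). SLC43A3 at 10 h kept its sign at -0.17 without the low-median arrays. The cause was not tested.

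The number of all genes called varied more. At 2 h against 0 h it was 4, and it was 1 with probe sets averaged, 2 with a preference for probe sets without a suffix, 2 with the probe set brightest at 0 h, 11 with trended robust variances, 26 with array weights, 8 with the replicate block and 8 with the low-median block. For 10 h against 0 h it was 70, and 108 with trended robust variances, 127 with array weights, 110 with the low-median block and 30 without the low-median arrays. For 10 h against 2 h it was 33, and 57, 62, 52 and 12 under those same alternatives. Leaving out each array in turn gave 4 to 7 at 2 h, 35 to 91 at 10 h against 0 h and 12 to 42 at 10 h against 2 h. The lowest of these came without a 10 h array (35 and 37 at 10 h against 0 h, 12 and 14 at 10 h against 2 h) and the 7 without 2 h replicate 3. Fits with fewer arrays have fewer residual degrees of freedom. Some counts rose in them, as to 91 at 10 h against 0 h without 2 h replicate 3. The cause of the changed counts was not tested for any setting. Array weights ran from 0.421 to 4.01. Brightness over background limits the 10 dim members.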

Other observations

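Probe sets for transcripts near or like the members, which the naming rule leaves out, were also read. They number 14 and include antisense transcripts of SLC38A2, SLC38A4, SLC7A11 and SLC7A14, the neighbour SLC7A6OS, and SLC7A5 pseudogenes whose 6 probe sets all carry several symbols. Of these, 8 lay above the negative controls. In the fit of all probe sets, whose background share was not counted, 0 were called by limma at either time. Their log2 differences ran from -0.22 to 0.20 at 2 h and from -0.19 to 0.13 at 10 h, both against 0 h. SLC7A5 itself was read from a probe set whose suffix marks shared sequence, and whether its pseudogenes contribute signal was not tested.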
